A study of Homo sapiens with 12 samples.

Results

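Gene expression was compared between 3 arrays whose source names carry the label ARF-4 and the 6 arrays whose source names carry the labels ARF-1 and ARF-2, which makes 9 of the 12 arrays of the series. The members were chosen by source name alone, and the ARF-1 and ARF-2 sets, with 3 arrays each, were weighted equally. All 12 arrays are Illumina HumanHT-12 V4.0 expression beadchips hybridised with RNA from MDA-MB-231. This established human breast cancer line lacks oestrogen, progesterone and HER2 receptors and has a spindle-shaped, mesenchymal look. Per the labels, the ARF-4, ARF-1 and ARF-2 cells had all received the same pool of small interfering RNA (siRNA) against ARF1 at 100 nM, delivered with Oligofectamine, and the 3 remaining arrays held cells given scramble siRNA. The labels leave the meaning of the set numbers unstated, and they name 2 culture media without saying which cells grew in which. The hyphen tells these sets from the genes ARF1 and ARF4. Whatever else may differ between the sets cannot be told apart from the set itself. The labels do not say that replicates were separate cultures, so p-values reflect no more than the spread among these samples, and that spread may be technical.

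ARF1 is a small GTPase that, when bound to GTP, recruits the COPI vesicle coat and clathrin adaptors to Golgi membranes, and so controls traffic between the Golgi, the endoplasmic reticulum and the plasma membrane. Its relatives ARF3, ARF4, ARF5 and ARF6 share parts of this work, with ARF6 at the cell surface. In breast cancer cells ARF1 has been studied for its part in invasion and in the epithelial-mesenchymal transition (EMT), by which epithelial cells loosen their contacts and become motile, and the series addresses that question.

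Values below are background-corrected, normalized signals on the log2 scale, and differences are ARF-4 minus the mean of ARF-1 and ARF-2 with their standard error (SE), unless stated otherwise. A probe passed the threshold when its adjusted p, from limma with Benjamini-Hochberg adjustment over 22195 probes, was below 0.05. "Higher" and "lower", used of a gene's change, mean past this threshold. Mean raw signal ran from 337 to 518 on the ARF-4 arrays, from 303 to 499 on ARF-1 and ARF-2 and from 371 to 503 on scramble, and 39.1% to 42.8% of probes were detected on an array, so the ranges overlapped. The number of arrays limits the precision of every value.

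The targeted gene did not tell the sets apart. The brightest ARF1 probe (ILMN_1802203) read 11.73, 11.78 and 11.78 on the ARF-4 arrays, 11.64, 11.79 and 11.72 on ARF-1, 11.87, 11.87 and 11.83 on ARF-2 and 11.59, 11.71 and 11.63 on scramble. The ARF-4 values lay inside the range of the other sets, and the scramble values were not above them. The difference was -0.02 ± 0.07 (adjusted p = 0.859), with a 95% confidence interval of -0.18 to 0.13. A second probe (ILMN_2330948) gave -0.19 ± 0.10 (adjusted p = 0.193). The dim probe ILMN_1661458 gave 0.23 ± 0.14 (adjusted p = 0.274), with detection on 3 ARF-4 arrays and on 3 of the other 6. No probe of ARF1 passed the threshold, so the sets are called by their labels, and a link between ARF1 level and the differences below was not shown. Among its relatives ARF5 was lower by 0.33 on the log2 scale (-0.33 ± 0.08, adjusted p = 0.0118), with 9.12, 9.20 and 9.14 on ARF-4 against 9.38 to 9.66 on the other 6 arrays. The ARF5 call was lost under median scaling (adjusted p = 0.332) and against ARF-2 alone (0.0563). ARF3 read 0.26 ± 0.13 (adjusted p = 0.169), ARF4 -0.05 ± 0.08 (adjusted p = 0.748) and ARF6 0.05 ± 0.14 (adjusted p = 0.83).

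ARF-4 differed at many probes from both other sets, which differed from each other at few. In all, 5367 of 22195 probes passed (24.2%), with 2738 higher in ARF-4 (12.3%) and 2629 lower (11.8%), and 1589 (7.16%) also differed by a fold of at least 1.5. At 1 probe per gene, 3510 of 12048 genes passed (29.1%), 1738 higher (14.4%) and 1772 lower (14.7%). Against ARF-1 alone 4353 probes passed (19.6%; 9.96% higher, 9.66% lower) and against ARF-2 alone 4277 (19.3%; 9.66% higher, 9.61% lower). Both comparisons use the same 3 ARF-4 arrays. ARF-2 against ARF-1 gave 14 probes (0.0631%; 0.0451% higher, 0.018% lower) by the same test, and 1982 at an unadjusted p under 0.05. All 3 ARF-4 arrays lay on 1 side of all 6 others for 3623 genes (30.1%), called or not. Across probes, arrays of a set correlated at 0.991 to 0.993, ARF-1 with ARF-2 at 0.990 to 0.993, and ARF-4 with either at 0.982 to 0.984, a description in which all arrays share the same probes. With cyclic loess in place of quantile normalization 5351 probes passed. With median scaling of the arrays 2579 passed, 1377 higher and 1202 lower, and 2503 of them were among the 5367.

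**Figure D1:**
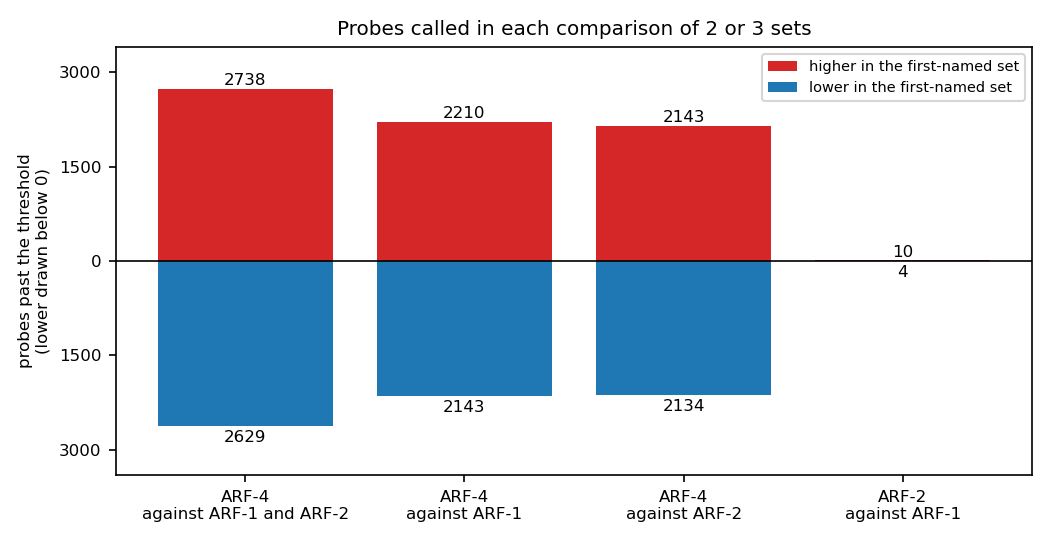
Probes past the adjusted p threshold in each of 4 comparisons, as a bar chart of probe counts with higher probes above 0 and lower probes below it. ARF-4 against the other sets gives 2738 and 2629 probes, ARF-2 against ARF-1 gives 10 and 4.

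The 15 genes with the largest rises were taken from the 1023 (8.49%) that were higher against ARF-1, against ARF-2 and against both, with no overlap of arrays. RRS1, a factor that joins 5S ribosomal particles to the large subunit, read 8.71, 8.86 and 9.00 on ARF-4, 7.42, 7.39 and 7.36 on ARF-1 and 7.18, 7.22 and 7.23 on ARF-2, which is 2.95-fold higher (1.56 ± 0.08, adjusted p = 3.32e-07). Scramble, at 9.02, 8.91 and 9.09, lay with ARF-4. RPPH1, the RNA of the nuclear ribonuclease P that trims transfer RNA, read 9.73, 9.79 and 9.59 on ARF-4, 8.14, 7.93 and 8.22 on ARF-1, 8.36, 8.23 and 8.14 on ARF-2 and 9.01, 8.99 and 8.98 on scramble (1.54 ± 0.09, adjusted p = 5.14e-07). Here scramble lay between ARF-4 and the other sets, while the ARF-1 and ARF-2 values overlapped. NCOA5, a coregulator of nuclear receptors, was higher by 1.38 ± 0.09, and TCF19, a proliferation-linked nuclear factor, by 1.35 ± 0.09. A second TCF19 probe gave 0.62 (adjusted p = 0.00834), and the dimmest, detected on 3 arrays, gave 0.12 (adjusted p = 0.607).

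RPL22L1, a paralogue of the ribosomal protein RPL22, was higher by 1.34 ± 0.13 while RPL22 itself was lower by 0.29 on the log2 scale (-0.29 ± 0.08), which was lost against ARF-2 alone (adjusted p = 0.127), under median scaling (0.395) and without ARF-4 replicate 1 (0.0952) or 2 (0.0537). TRMT61A, the catalytic part of a transfer RNA methyltransferase, rose by 1.34 ± 0.12. CHAC2, which degrades glutathione, rose by 1.33 ± 0.10, and SLC5A6, the carrier of biotin and pantothenate, by 1.32 ± 0.10. CDC25A, the phosphatase that releases cyclin-dependent kinases at the start of S phase, read 9.08, 8.88 and 8.98 on ARF-4, 7.60, 7.78 and 7.73 on ARF-1, 7.78, 7.52 and 7.68 on ARF-2 and 8.91, 8.96 and 8.91 on scramble (1.30 ± 0.08), and its second probe gave 0.67 (adjusted p = 0.000206). IPO4, an importin that carries proteins into the nucleus, rose by 1.29 ± 0.11 and COA7, an assembly factor of cytochrome c oxidase, by 1.26 ± 0.11. The nucleolar protein gene GPATCH4 rose by 1.25 ± 0.09, with its other probes at 1.01 and 1.28. FLG, which encodes the skin barrier protein filaggrin, read 6.03, 5.77 and 6.20 on ARF-4, where all 3 arrays detected it, and 4.55 to 5.29 on ARF-1 and ARF-2, where 1 of 6 did. It passed the detection filter only through ARF-4, so its size and its place among the 15 carry no weight. The ubiquitin ligase gene MARCHF4 rose by 1.19 ± 0.10 and the sulfotransferase gene CHST10 by 1.18 ± 0.11. Adjusted p for the other 14 ran from 3.32e-07 for RRS1 to 2.91e-05 for RPL22L1.

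The largest falls were larger than the largest rises and took in a cholesterol exporter, secreted protease inhibitors, hypoxia genes and a brake on the cell cycle. They come from the 1096 genes (9.1%) that were lower against each set and both, without overlap. ABCA1, which exports cholesterol to apolipoproteins, read 7.12, 6.97 and 6.82 on ARF-4, 9.63, 9.55 and 9.50 on ARF-1, 9.48, 9.49 and 9.42 on ARF-2 and 8.04, 8.09 and 7.77 on scramble. That is 5.82-fold lower than in the other sets (-2.54 ± 0.09, adjusted p = 3.4e-08), with scramble in between. CST1, a secreted cystatin that inhibits cysteine proteases, read 8.25, 8.22 and 8.23 on ARF-4, 10.64, 10.62 and 10.78 on ARF-1, 10.84, 10.86 and 10.89 on ARF-2 and 11.34, 11.30 and 11.30 on scramble (-2.54 ± 0.07, adjusted p = 1.75e-09). For CST1 the ARF-4 set stood apart from every other set, scramble included. CST4, a close relative, read 7.12, 7.46 and 7.21 on ARF-4, against 9.22 to 9.52 on ARF-1 and ARF-2 and 9.18, 9.12 and 9.21 on scramble (-2.12 ± 0.09; second probe -1.92). CST2, the other relative, was lower by 1.40 on the log2 scale (-1.40 ± 0.10). The 3 cystatin genes are near-identical in sequence, so a probe may bind RNA of another one, and the 3 values may not be independent.

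NDRG1, a growth-arrest gene raised by hypoxia, read 8.92, 9.21 and 8.97 on ARF-4, 11.52, 11.52 and 11.42 on ARF-1, 11.36, 11.36 and 11.10 on ARF-2 and 10.06, 10.22 and 10.16 on scramble (-2.35 ± 0.09, adjusted p = 5.44e-08). LAIR2, a secreted decoy for the collagen receptor LAIR1, read 5.44, 5.78 and 5.51 on ARF-4 against 7.58 to 7.72 on ARF-1 and ARF-2 (-2.08 ± 0.10; second probe -2.01). KLF9, a zinc finger transcription factor that answers to hormones, read 6.67, 6.78 and 6.76 on ARF-4 against 8.67 to 8.83 (-2.05 ± 0.09), with scramble near ARF-4 at 7.06, 6.90 and 6.74. CCNG2, an unconventional cyclin that goes with cell cycle arrest, read 5.87, 6.31 and 5.98 on ARF-4 against 7.82 to 8.12 (-1.94 ± 0.11); its second probe gave -0.61, and the remaining probe was undetected on all ARF-4 arrays. That all 3 ARF-4 arrays lay below all 6 others was a condition for choosing these genes.

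SLC2A3, the glucose carrier GLUT3, fell by 1.73 on the log2 scale (-1.73 ± 0.07), and the long non-coding RNA SLCO4A1-AS1 by 1.70 (-1.70 ± 0.08). CDC42EP5, a binding partner of the GTPase CDC42, was undetected on all 3 ARF-4 arrays and at least 2.78-fold lower than on the other sets, a bound set by the detection limit. It passed the detection filter only through arrays outside ARF-4, so its size and its place among the 15 carry no weight. TFF3, a secreted trefoil peptide, read 5.91, 5.44 and 5.70 on ARF-4, 7.17, 7.23 and 7.26 on ARF-1 and 7.44, 7.74 and 7.39 on ARF-2 (-1.69 ± 0.12). The transmembrane protein gene TMEM91 gave -1.68 ± 0.15, the calcium-activated NADPH oxidase gene NOX5 -1.64 ± 0.12, the zinc finger gene ZNF467 -1.64 ± 0.09 and the flippase gene ATP9A -1.62 ± 0.11. Adjusted p for the 15 largest falls ran from 1.75e-09 for CST1 to 1.45e-05 for TMEM91. The 15 rises and 15 falls, FLG and CDC42EP5 included, passed the threshold under each of the 26 other settings and left-out arrays tried, where they could be fitted. Their sizes depended on the setting: CHST10 ran from 0.431 to 1.248, RPL22L1 from 0.547 to 1.431 and TMEM91 from -1.746 to -0.701. RRS1 ran from 1.176 to 1.649 and CST1 from -2.631 to -2.245. ARF-1 alone and ARF-2 alone, among these settings, were conditions of the choice. The genes were chosen as extreme on these same arrays, so the kept calls add no independent support. The places of FLG and CDC42EP5 still carry no weight.

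**Figure D2:**
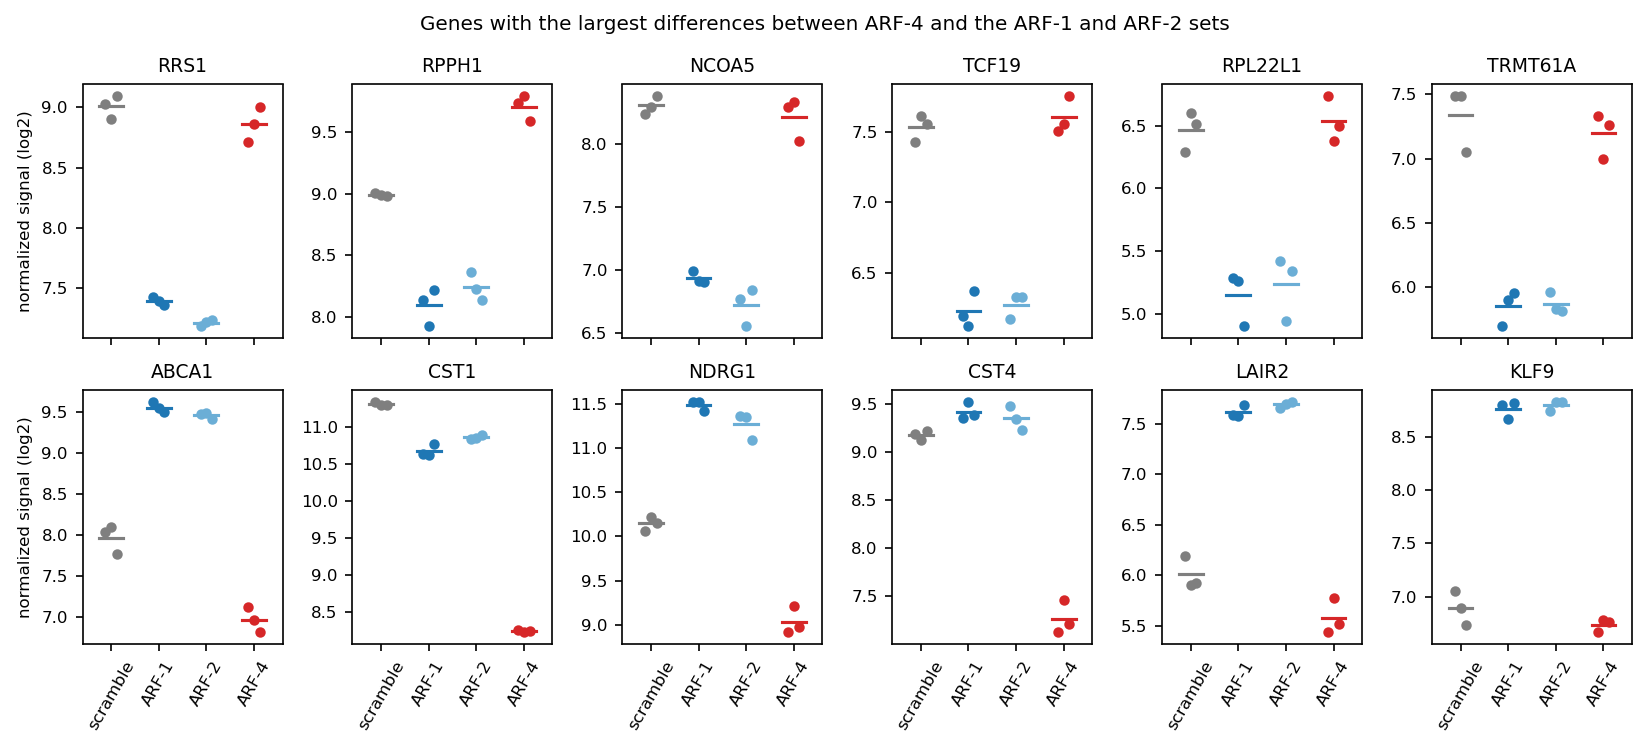
Normalized signal (log2) of the 6 largest rises, in the upper row, and the 6 largest falls, in the lower row, on each of the 12 arrays. Points are arrays, short lines are means of 3 arrays, and each gene has its own vertical scale. By the choice of genes, the ARF-4 arrays lie clear of all ARF-1 and ARF-2 arrays in every panel. Scramble lies near ARF-4 for genes such as RRS1 and KLF9 but not for CST1.

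The gene lists described next were compared by the share of tested members higher or lower beside the share over all 12048 genes (14.4% higher, 14.7% lower, median difference 0.0047). Lists and members were chosen with earlier results of these data known, so these shares describe the lists and give no independent support. Members named as examples are mostly those with the smallest adjusted p. List counts under other settings stand beside fewer calls over all probes. Under median scaling 2579 of 22195 probes passed, in place of 5367. Without ARF-4 replicate 1, 2 or 3 the counts were 4221 of 21904, 4095 of 21845 and 4434 of 21840. Ribosome biogenesis genes, which make, modify and assemble ribosomal RNA in the nucleolus, had 28 of 40 members higher and 0 lower, with a median of 0.56. The 28 ranged up to 1.56 ± 0.08 in RRS1. NOL6, of the small subunit processome, read 10.30, 10.30 and 10.19 on ARF-4 against 9.02 to 9.34 on the other 6 arrays (1.05 ± 0.08), while its dim second probe gave 0.51 (adjusted p = 0.0674). NOP56, a core protein of box C/D small nucleolar particles, read 11.98 to 12.06 on ARF-4 against 11.06 to 11.30 (0.84 ± 0.07), and its other probes gave 0.77 and 0.89. NOP2, a ribosomal RNA methyltransferase, read 10.74, 10.97 and 10.74 against 9.97 to 10.14 (0.80 ± 0.08), with other probes at 1.05 and 0.88. The lowest members were UTP20 and DDX10, at -0.18 each and not past the threshold; both were named after their values were seen. Against scramble the list stood level in ARF-4, with a median of -0.04, and lower in ARF-1 and ARF-2, with a median of -0.55. Under median scaling 22 of the 40 were higher.

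Structural RNAs and proteins of other translation steps moved less evenly. Of 27 small nucleolar and structural RNAs 9 were higher and 2 lower, with a median of 0.21. Besides RPPH1, the guide RNA SNORA57 rose by 0.91 ± 0.10 and SCARNA8 by 0.81 ± 0.09. SNORD13 fell by 0.71 on the log2 scale (-0.71 ± 0.08), from 9.89, 9.83 and 9.86 on ARF-1 and 10.24, 10.05 and 10.08 on ARF-2 to 9.37, 9.24 and 9.23 on ARF-4, while scramble was far lower at 7.13, 7.18 and 7.24. Mitochondrial ribosomal proteins had 16 of 45 higher and 0 lower (median 0.21), led by MRPL12 at 0.67 ± 0.09 and MRPS12 at 0.52 ± 0.08. Cytosolic ribosomal proteins had only 3 of 46 higher and 2 lower (median 0.03). Aminoacyl-tRNA synthetases, which charge transfer RNA, had 3 of 18 higher and 2 lower, FARSA leading at 0.81 ± 0.11. Without ARF-4 replicate 2 the synthetases had 1 and 1, and without ARF-4 replicate 1 the cytosolic ribosomal proteins had 1 and 1. Under median scaling 8 mitochondrial ribosomal protein genes, 5 structural RNAs and 1 synthetase gene were higher, while the list medians were 0.243, 0.213 and -0.053.

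Protein folding and breakdown genes rose in part. Heat shock chaperones had 10 of 23 higher and 1 lower (median 0.28). HSPA9, the mitochondrial Hsp70, rose by 0.52 ± 0.08, HSPH1 by 0.41 ± 0.07, the co-chaperone STIP1 by 0.46 ± 0.09 and the chaperonin subunit CCT3 by 0.45 ± 0.09. The fall was BAG3 (-0.36), named after its value was seen. Proteasome subunits had 9 of 27 higher and 0 lower (median 0.17), among them PSMB5 at 0.42 ± 0.07 and PSMC3 at 0.52 ± 0.10. Under median scaling 2 chaperone genes and 1 proteasome gene were higher, while the medians were 0.30 and 0.20. Also under median scaling, STIP1, HSPH1 and PSMB5 lost their calls (adjusted p = 0.0519, 0.0928 and 0.105). Without ARF-4 replicate 1, 5 proteasome genes were higher.

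In the list of E2F targets and S phase genes, which serve DNA replication, 24 of 38 were higher, 0 lower and 14 not past the threshold (median 0.35). RRM2, the subunit of ribonucleotide reductase made in S phase, read 9.21, 9.41 and 9.13 on ARF-4, 8.06, 8.14 and 8.08 on ARF-1, 8.24, 8.35 and 8.17 on ARF-2 and 8.85, 8.86 and 8.98 on scramble (1.07 ± 0.08). MCM4, of the replicative helicase, read 10.40, 10.38 and 10.37 on ARF-4 against 9.61 to 9.76 (0.69 ± 0.07; second probe 0.35). CDT1, which licenses replication origins, rose by 0.76 ± 0.11, and UHRF1, which maintains DNA methylation, by 0.72 ± 0.10. Genes of G2 and mitosis had 11 of 40 higher and 1 lower (median 0.11). CDC20, which activates the anaphase-promoting complex, rose by 0.52 ± 0.07, the spindle protein TPX2 by 0.46 ± 0.07 and PIMREG by 0.41 ± 0.09, while the cytokinesis gene ECT2 fell by 0.42 on the log2 scale. In bulk RNA a larger share of cells in S phase and more RNA per cell cannot be told apart. Under median scaling 12 E2F and 2 mitosis genes were higher, and the calls of ECT2 and PIMREG were lost (adjusted p = 0.18 and 0.0828).

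Regulators of G1 went both ways, with 5 of 23 higher and 9 lower. Beside CDC25A, the 3 leading members were brakes on the cycle and were all lower. RBL2, a pocket protein that represses E2F genes in resting cells, read 7.15, 7.05 and 6.97 on ARF-4 against 7.78 to 8.02 (-0.84 ± 0.08), and scramble was level with ARF-4. CDKN1C, the cyclin-dependent kinase inhibitor p57, was undetected on all 3 ARF-4 arrays and at least 1.77-fold lower. CDKN1C passed the detection filter only through arrays outside ARF-4, so its place among the leading members carries no weight. BTG1, which restrains proliferation, read 10.79, 10.76 and 10.66 on ARF-4 against 11.41 to 11.66 (-0.81 ± 0.09). Counts were 2 higher and 5 lower under median scaling.

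Hypoxia and glycolysis genes, most of them targets of the transcription factors HIF1A and EPAS1, had 21 of 35 members lower and 2 higher, with a median of -0.34. After NDRG1 and SLC2A3 came ALDOC, a glycolytic aldolase, at 6.76, 6.82 and 6.57 on ARF-4 against 8.10 to 8.56 on the other 6 arrays and 8.06, 8.07 and 7.94 on scramble (-1.59 ± 0.09). PFKFB4, which sets fructose 2,6-bisphosphate, read 8.43, 8.36 and 8.39 on ARF-4 against 9.33 to 9.79 (-1.19 ± 0.08). VEGFA, the growth factor of blood vessels, was lower (-1.10 ± 0.08; second probe -0.80). The 2 rises were ANGPTL4 (1.04), an inhibitor of lipoprotein lipase, and PKM (0.32), a pyruvate kinase, both named after their values were seen. The genes of the factors themselves, also named after their values were seen, were lower: HIF1A gave -0.81 ± 0.11 and EPAS1 -0.77 ± 0.09. The median was below scramble in ARF-4 (-0.36) and above it in ARF-1 and ARF-2 (0.10). For NDRG1, SLC2A3, ALDOC and PFKFB4 scramble lay between the sets. These 4 were also lower in ARF-4 than in scramble (adjusted p = 8.34e-05, 0.00108, 1.35e-05 and 0.00299), as were 4.8% of all genes. They were named for their difference from ARF-1 and ARF-2, which rests on the same ARF-4 arrays. VEGFA went the other way, with 8.72, 8.67 and 8.67 on ARF-4 above 8.59, 8.55 and 8.44 on scramble. Counts were 15 lower and 1 higher under median scaling.

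**Figure D3:**
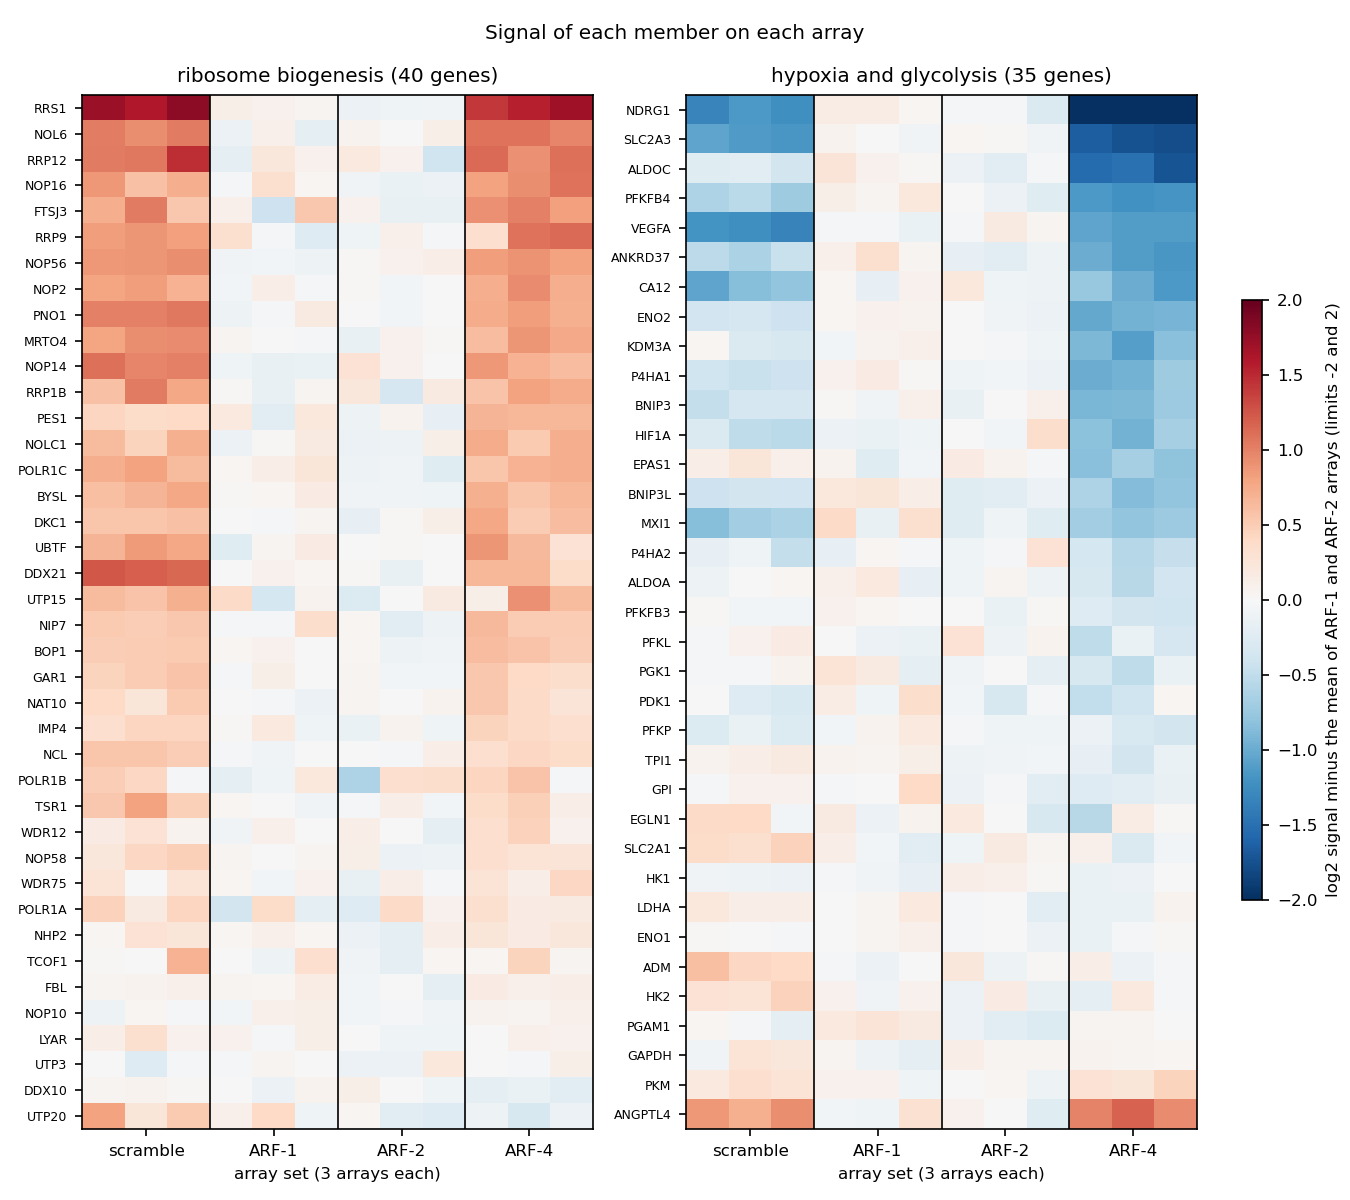
Signal of each tested member of the ribosome biogenesis list (40 genes, left) and the hypoxia and glycolysis list (35 genes, right) on each of the 12 arrays, as log2 signal minus the mean of the 6 ARF-1 and ARF-2 arrays; colours stop at -2 and 2. Most ribosome biogenesis genes are red on both the scramble and the ARF-4 arrays, with exceptions such as DDX10 and UTP20 on ARF-4, and most hypoxia genes are blue on ARF-4 and paler on scramble.

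Sequences upstream of a few of these genes are shown as examples that hold an E2F motif or an E-box. They are RefSeq sequences of the 250 bases before each gene's start, on GRCh38.p14, with the motif in capitals. CDC25A holds an E2F motif 44 bases before its start, where TTTCGCGC and TTTGGCGC were searched on both strands. The others hold the E-box CACGTG, read by factors such as MYC, MAX and USF, at 29 bases in IPO4, 147 in ABCA1, 30 in CCNG2 and 240 in ALDOC.
CDC25A, chr3:48188418-48188667, minus strand: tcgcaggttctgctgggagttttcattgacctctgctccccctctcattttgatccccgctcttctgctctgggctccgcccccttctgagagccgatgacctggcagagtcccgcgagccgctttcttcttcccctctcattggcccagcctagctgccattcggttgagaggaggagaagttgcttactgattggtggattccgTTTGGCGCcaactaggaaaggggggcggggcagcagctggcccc
IPO4, chr14:24188817-24189066, minus strand: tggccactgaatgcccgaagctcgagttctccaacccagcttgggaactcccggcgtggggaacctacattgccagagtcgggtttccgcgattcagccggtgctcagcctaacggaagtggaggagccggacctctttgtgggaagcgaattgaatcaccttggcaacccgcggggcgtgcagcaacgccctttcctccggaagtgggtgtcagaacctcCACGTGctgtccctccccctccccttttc
ABCA1, chr9:104928156-104928405, minus strand: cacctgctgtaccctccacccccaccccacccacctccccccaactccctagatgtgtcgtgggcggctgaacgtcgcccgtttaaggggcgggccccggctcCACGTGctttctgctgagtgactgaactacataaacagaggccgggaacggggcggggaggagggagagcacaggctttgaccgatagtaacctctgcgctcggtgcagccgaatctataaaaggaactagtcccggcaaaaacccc
CCNG2, chr4:77156957-77157206, plus strand: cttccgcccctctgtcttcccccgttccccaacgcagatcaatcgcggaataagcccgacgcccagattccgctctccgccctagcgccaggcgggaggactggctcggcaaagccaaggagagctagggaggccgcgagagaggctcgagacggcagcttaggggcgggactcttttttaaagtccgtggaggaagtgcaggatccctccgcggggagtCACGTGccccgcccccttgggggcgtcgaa
ALDOC, chr17:28576896-28577145, minus strand: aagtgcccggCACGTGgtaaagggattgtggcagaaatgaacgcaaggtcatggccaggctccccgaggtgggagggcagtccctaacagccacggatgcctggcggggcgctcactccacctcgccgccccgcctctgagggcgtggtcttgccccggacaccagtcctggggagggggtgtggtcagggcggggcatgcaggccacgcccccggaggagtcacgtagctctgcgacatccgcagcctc
The E2F motif was in 7 of 36 promoters of the E2F list (19.4%), in 0 of 33 of the ribosome biogenesis list, in 1 of 31 of the hypoxia list (3.23%) and in 1.76% of the 9623 tested genes with a promoter entry. The E-box was in 4 of 33 ribosome biogenesis promoters (12.1%), 4 of 36 E2F promoters (11.1%), 5 of 31 hypoxia promoters (16.1%) and 8.86% of tested genes. Among promoters of the 15 largest rises it was in 2 of 13, and among those of the 15 largest falls in 3 of 8. ACGTG, the core of the hypoxia response element, which overlaps the E-box by 5 letters, was in 13 of 31 hypoxia promoters (41.9%), 11 of 33 ribosome biogenesis promoters (33.3%), 11 of 36 E2F promoters (30.6%), 5 of 13 promoters of the largest rises (38.5%), 3 of 8 of the largest falls (37.5%) and 23.5% of tested genes. Over all 27305 promoters the shares were 0.996% for the E2F motif, 6.49% for the E-box and 18.7% for ACGTG. A match is a description of these windows and no evidence of binding, and both rising and falling genes held the E-box.

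Immediate early genes and feedback inhibitors of the MAP kinase cascade, which are switched on by growth factor signals, had 15 of 32 members lower, 1 higher and 16 not past the threshold (median -0.31). DUSP4, a phosphatase of ERK, read 8.15, 7.97 and 8.06 on ARF-4, 9.63, 9.81 and 10.00 on ARF-1, 9.47, 9.53 and 9.43 on ARF-2 and 7.88, 8.08 and 7.91 on scramble (-1.59 ± 0.09), but a dimmer second probe gave -0.02 (adjusted p = 0.948). DUSP5, which dephosphorylates ERK in the nucleus, read 10.12, 9.84 and 10.07 on ARF-4 against 11.09 to 11.20 (-1.14 ± 0.09). SPRY2, an inhibitor of receptor signalling, fell by 0.88 on the log2 scale (-0.88 ± 0.08), and ZFP36, which destabilises cytokine messages, by 0.78 (-0.78 ± 0.07). The rise was IER5 (0.60), named after its value was seen. Under median scaling 10 were lower and 1 higher.

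Cytokine genes fell where they changed most. Of 33 NF-kB targets and cytokines 10 were lower and 5 higher (median -0.05). IL1B, interleukin-1 beta, read 8.10, 8.08 and 8.09 on ARF-4, 9.30, 9.26 and 9.25 on ARF-1 and 9.92, 9.98 and 9.89 on ARF-2, with scramble at 7.89, 7.86 and 7.75 (-1.51 ± 0.07); it also differed between ARF-2 and ARF-1 (0.66, adjusted p = 0.0125). CCL20, which attracts lymphocytes, read 6.98, 6.89 and 6.64 on ARF-4, 7.74, 8.14 and 7.94 on ARF-1 and 8.51, 8.73 and 8.72 on ARF-2 (-1.46 ± 0.11). IL6, interleukin-6, read 9.34, 9.52 and 9.56 on ARF-4, 10.17, 10.33 and 10.46 on ARF-1 and 10.83, 10.96 and 10.82 on ARF-2 (-1.12 ± 0.09), and CXCL8, interleukin-8, fell by 0.66 on the log2 scale. IL7R, the interleukin-7 receptor, rose by 0.81 ± 0.11. Interferon-stimulated genes had 13 of 38 lower and 3 higher (median -0.11), led by the GTPase gene GBP2 (-1.37 ± 0.07), the exonuclease gene ISG20 (-1.12 ± 0.09), IFITM1, which blocks virus entry (-1.31 ± 0.15), and IFI27 (-0.92 ± 0.08). The list depended on the comparison set. Against ARF-1 alone 9 were lower and 5 higher (median -0.014), and against ARF-2 alone 15 were lower and 1 higher (median -0.191). IFIT3 and IFIT1 were higher in ARF-2 than in ARF-1 (0.769 and 0.676, limma adjusted p = 0.00846 and 0.0464). Both were named after their values were seen. Genes of MHC class I presentation had 4 of 18 lower and 2 higher; HLA-G, HLA-B and HLA-C were lower by 0.49 to 0.54 on the log2 scale, although their similar sequences may share probes, and the peptide transporter TAP2 rose by 0.81 ± 0.10. Under median scaling 8 cytokine and 5 interferon genes were lower and 2 and 1 higher, 2 MHC class I genes were lower and 1 higher, and HLA-G lost its call (adjusted p = 0.0704).

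Of 31 integrin and focal adhesion genes 15 were lower, 1 was higher and 15 did not pass the threshold (median -0.23). LAMA5, a laminin chain of basement membranes, read 11.79, 11.73 and 11.51 on ARF-4 against 12.54 to 12.76 (-0.94 ± 0.08). ITGB4, the integrin beta chain of hemidesmosomes, read 7.23, 7.19 and 6.91 against 7.97 to 8.23 (-0.94 ± 0.09; second probe -1.11), and scramble was with the other sets at 7.94, 7.95 and 8.06. ITGA5, the fibronectin receptor chain, fell by 0.84 on the log2 scale (-0.84 ± 0.08) and ITGA2, a collagen receptor chain, by 0.74 (-0.74 ± 0.08). The rise was TPM1 (0.39), a tropomyosin, named after its value was seen. Under median scaling 8 were lower and 0 higher.

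Mesenchymal genes and EMT factors had 10 of 21 lower and 2 higher (median -0.31). ACTA2, smooth muscle actin, fell by 1.17 on the log2 scale (-1.17 ± 0.11), the motility protein S100A4 by 0.73 (-0.73 ± 0.08; second probe -0.70), and the collagen VI chains COL6A3 and COL6A1 by 0.86 and 0.75. SNAI2, the EMT transcription factor Slug, went the other way: it read 7.07, 6.90 and 6.90 on ARF-4, 6.50, 5.86 and 6.17 on ARF-1, 5.49, 6.18 and 6.22 on ARF-2 and 7.42, 7.61 and 7.47 on scramble. Its difference was 0.89 ± 0.17 (adjusted p = 0.00203) and 0.50 on the second probe (adjusted p = 0.0263), with ARF-4 between scramble and the other sets. VIM, the intermediate filament vimentin, read -0.02 ± 0.08 (adjusted p = 0.884), ZEB1 0.23 ± 0.17 (adjusted p = 0.351; 0.06 to 0.44 with 1 array left out) and FN1, detected on 3 arrays, -0.29 ± 0.16 (adjusted p = 0.21). The EMT genes SNAI1, TWIST1 and CDH1 had 0 arrays with detection and CDH2 had 1, which kept them out of the test. Epithelial genes had 7 of 23 lower and 2 higher (median -0.11): the tight junction gene CLDN7 (-1.04 ± 0.16), CD24 (-1.02 ± 0.09; second probe -0.59) and the protease inhibitor SPINT2 (-0.48 ± 0.08) were lower and KRT80 higher (0.57 ± 0.08). Under median scaling the counts were 5 lower and 1 higher for mesenchymal and 3 lower and 2 higher for epithelial genes, and SPINT2 lost its call (adjusted p = 0.0856).

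Growth factor pathways of the TGF-beta and Hippo families gave mixed lists. Of 24 TGF-beta, BMP and SMAD feedback genes 2 were higher and 4 lower. ID3, which BMP signals induce, read 8.65, 8.61 and 8.74 on ARF-4, 7.39, 7.37 and 7.28 on ARF-1, 7.63, 7.49 and 7.83 on ARF-2 and 9.18, 9.32 and 9.33 on scramble (1.17 ± 0.09), an order with ARF-4 in between. The receptor TGFBR2 fell by 0.64 on the log2 scale (-0.64 ± 0.07) and the secreted TGFBI by 0.46 (-0.46 ± 0.07; adjusted p = 0.0977 under median scaling). YAP and TAZ targets had 5 of 23 higher and 6 lower, among them WWTR1, which encodes TAZ itself (-0.89 ± 0.11), and AJUBA (0.78 ± 0.10), whose other probes gave -0.06 (adjusted p = 0.794) and 0.37 (adjusted p = 0.17). Under median scaling 4 YAP and TAZ targets were higher and 1 lower, and 3 were lower without ARF-4 replicate 2 or 3. The TGF-beta list had 1 higher and 1 lower under median scaling.

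Lipid genes were headed by large falls. The list named sterol synthesis and uptake, which also holds regulators and the exporter ABCA1, had 10 of 24 lower and 3 higher (median -0.06). After ABCA1 came INSIG1, which holds sterol sensors in the endoplasmic reticulum, at 9.08, 9.31 and 9.27 on ARF-4 against 10.07 to 10.26 (-0.95 ± 0.09), though its dim second probe gave 0.00 (adjusted p = 0.99). INSIG2 gave -0.90 ± 0.11 and MYLIP, the ligase that degrades the LDL receptor, -0.64 ± 0.08. None of these named members is an enzyme of sterol synthesis, so their falls do not stand for a fall of synthesis genes. Fatty acid and lipid genes had 8 of 32 lower and 5 higher. PTGS2, the inducible cyclooxygenase, read 7.68, 7.64 and 7.50 on ARF-4, 8.92, 8.84 and 8.75 on ARF-1 and 9.34, 9.50 and 9.35 on ARF-2 (-1.51 ± 0.08; second probe -1.63). SCD, the stearoyl-CoA desaturase, read 9.67, 9.78 and 9.60 on ARF-4, 11.28, 11.21 and 11.15 on ARF-1, 10.97, 10.88 and 10.82 on ARF-2 and 9.54, 9.46 and 9.59 on scramble (-1.37 ± 0.08). PPARG, a lipid-sensing nuclear receptor, fell by 0.55 on the log2 scale and the fatty acid carrier FABP5 rose by 0.58 ± 0.08. Lysosome and autophagy genes had 11 of 35 lower and 5 higher (median -0.13): the kinase that starts autophagy, ULK1, gave -0.96 ± 0.09 (second probe -1.11), GABARAPL1 -0.90 ± 0.08, MAP1LC3A -0.72 ± 0.08 and cathepsin B (CTSB) -0.64 ± 0.08. Under median scaling 6 sterol, 4 lipid and 7 lysosome genes were lower, and 1, 3 and 1 higher. With 1 array left out, the sterol list had 1 higher in 6 of 9 cases, lipid genes 3 higher without ARF-4 replicate 3 and lysosome genes 3 higher without ARF-4 replicate 2.

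Most members of the stress and secretory lists did not pass the threshold, which also held for all genes, of which 29.1% passed. Targets of ATF4, the factor of amino acid and translation stress, had 10 of 29 lower and 2 higher (median -0.17). That is 34.5% lower and 6.9% higher, against 14.7% and 14.4% of all genes. DDIT4, which restrains mTORC1, read 10.41, 10.50 and 10.43 on ARF-4, 11.77, 11.74 and 11.85 on ARF-1, 11.54, 11.52 and 11.53 on ARF-2 and 10.26, 10.22 and 10.15 on scramble (-1.21 ± 0.07). VLDLR, a lipoprotein receptor, gave -1.36 ± 0.12, and SLC3A2, a chain of amino acid carriers, rose by 0.62 ± 0.08. The unfolded protein response list had 5 of 21 lower (23.8%) and 4 higher (19%). EDEM1 (-0.68 ± 0.07), the chaperones HSPA5 (-0.54 ± 0.08) and HSP90B1 (-0.53 ± 0.09) and the factor XBP1 (-0.50 ± 0.08) were lower. COPI and Golgi genes had 7 of 25 lower and 0 higher (median -0.04), which is 28% against 14.7% of all genes. KDELR3, which retrieves escaped endoplasmic reticulum proteins, read 7.90, 7.93 and 7.58 on ARF-4, 8.49, 8.56 and 8.59 on ARF-1, 8.46, 8.41 and 8.37 on ARF-2 and 7.54, 7.35 and 7.36 on scramble (-0.68 ± 0.09); its other probes gave -0.37 (adjusted p = 0.0141) and -0.12 (adjusted p = 0.574). COPII coat genes had 4 of 18 lower and 2 higher, among them SEC24D (-0.59 ± 0.10) and PREB (0.58 ± 0.08). Without ARF-4 replicate 2 the COPI and Golgi list had 3 lower and 1 higher, and against ARF-2 alone 4 lower. ARF family members and regulators had 5 of 25 lower and 1 higher, led by the GTPase-activating ASAP2 (-0.66 ± 0.12). Without ARF-4 replicate 1, 2 ARF family and 2 COPII genes were lower. The unfolded protein response list had 2 higher when any 1 ARF-4 array was left out. Under median scaling 5 ATF4 and 3 unfolded protein response genes were lower and 1 and 0 higher, 1 COPI, 1 COPII and 1 ARF family gene were lower, and XBP1 lost its call (adjusted p = 0.0692).

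The remaining lists were mixed. Metallothionein and NRF2 genes had 2 of 20 higher and 3 lower. Among the lower were MT1F (-1.14 ± 0.08), a metal-binding protein whose relatives may share its probe, and the drug exporter ABCC3 (-1.11 ± 0.07). The higher were SRXN1 (0.38 to 0.46 with 1 array left out) and another metallothionein, MT1E (0.28 to 0.34). Both lost their calls under median scaling, and MT1E also without ARF-4 replicate 2. For p53 targets the counts were 4 and 6 of 20. The glycolysis regulator TIGAR (0.76 ± 0.14) and BAX were higher, and CDKN1A and CCNG1 were lower. With 1 array left out CDKN1A ran from -0.56 to -0.42 and CCNG1 from -0.51 to -0.41. Both lost their calls under median scaling (adjusted p = 0.0627 and 0.106). Apoptosis regulators had 3 and 3 of 24, with the survival protein MCL1 lower (-0.62 ± 0.07; second probe -0.19, adjusted p = 0.3) and the caspase gene CASP2 higher (0.60 ± 0.08). Respiratory chain subunits had 4 and 1 of 47, histones 3 and 0 of 19, small RNA silencing genes 4 and 2 of 17 and cancer-testis genes 2 and 1 of 14. XPO5, which exports microRNA precursors, rose by 0.57 ± 0.08. Under median scaling p53 targets had 3 higher and 1 lower, apoptosis regulators 3 and 1, respiratory chain subunits 0 and 0, histones 1 and 0, small RNA silencing genes 2 and 0 and metallothionein and NRF2 genes 0 and 2. Without background correction respiratory chain subunits had 9 higher, and metallothionein and NRF2 genes 5 higher and 6 lower. The histone count fell to 1 when ARF-1 replicate 2 or 3, or ARF-2 replicate 1 or 2, was left out.

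**Figure D4:**
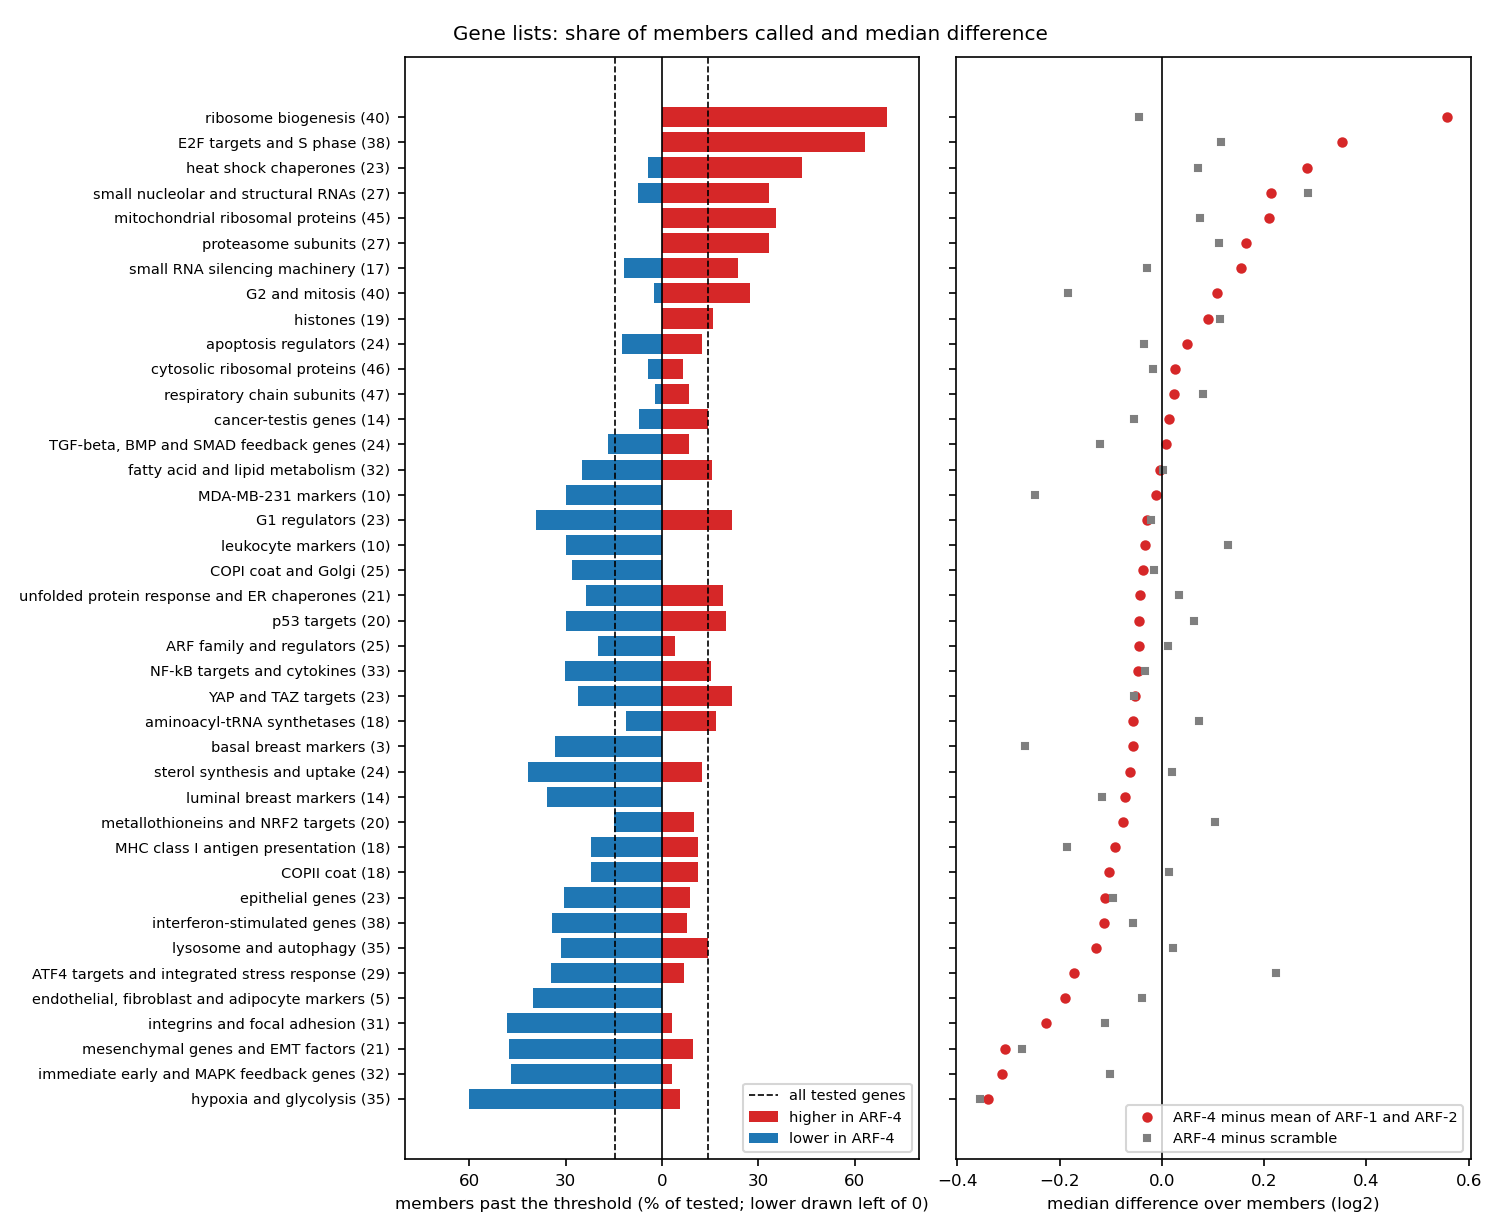
The 40 gene lists with the number of tested members in brackets. The left panel shows the percentage of tested members higher (right of 0) and lower (left of 0) in ARF-4, with dashed lines at the 14.4% and 14.7% of all tested genes, and the right panel shows the median difference (log2) from ARF-1 and ARF-2 (circles) and from scramble (squares). Ribosome biogenesis is at the top with 28 of 40 higher, and hypoxia and glycolysis at the bottom with 21 of 35 lower.

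Markers of the cell line and of other cell types moved in part with the sets. Of 12 MDA-MB-231 markers 10 were tested, 3 were lower (CXCL8, EGFR and PLAUR) and SPARC was undetected. Their summed level on the linear scale was 41070 to 43703 on ARF-4 arrays, 43183 to 46524 on ARF-1 and ARF-2 and 46981 to 48931 on scramble. Of 10 luminal markers 6 were tested, and TFF3, AGR2 and ERBB3 were lower, with sums of 746 to 759, 901 to 1102 and 1499 to 1509 in the same order, and ESR1 and PGR were at 0 detected arrays. AGR2 read 6.75, 6.79 and 7.05 on ARF-4, 7.91, 7.86 and 7.99 on ARF-1, 8.22, 8.18 and 8.19 on ARF-2 and 9.29, 9.37 and 9.25 on scramble (-1.20 ± 0.08), but its second probe gave 0.18 (adjusted p = 0.31). Leukocyte markers summed to 120 to 135, 166 to 306 and 116 to 136, with CD14, the 1 tested of 5 listed, lower and PTPRC, CD3D and TYROBP undetected. Endothelial, fibroblast and adipocyte markers summed to 111 to 116, 229 to 299 and 186 to 201, with PECAM1 lower (-1.43 ± 0.07) of 2 tested and CDH5 and PLIN1 undetected. The longer lists behind the plot of gene lists had 5 of 14 luminal, 1 of 3 basal, 3 of 10 leukocyte and 2 of 5 endothelial, fibroblast and adipocyte genes lower and 0 higher; the basal gene, EGFR, gave -0.58 ± 0.08 and -0.29 on a second probe (adjusted p = 0.2). The part of these markers in the results was not tested.

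Scramble, which the comparison does not use, lay nearer to ARF-4 for most of the genes that told the sets apart. Of the 3068 genes that passed the threshold without overlap of arrays (25.5% of all genes), the mean of the scramble arrays was nearer ARF-4 for 2282 (74.4%) and nearer the mean of ARF-1 and ARF-2 for 786 (25.6%). The share was 75.4% among the 1519 higher and 73.4% among the 1549 lower genes. For 1151 genes scramble lay beyond ARF-4, for 1131 between but nearer ARF-4, for 556 between but nearer the other sets, and for 230 beyond the other sets. NOX5, ZNF467 and ATP9A were the largest of those with scramble beyond ARF-4. ZNF467 read 5.30, 5.47 and 5.45 on ARF-4, 7.29, 6.96 and 7.06 on ARF-1, 7.00, 7.06 and 6.91 on ARF-2 and 4.85, 4.68 and 4.69 on scramble. The largest with scramble beyond the other sets were CST1 and CST2, for which the ARF-4 arrays stood apart from all 9 other arrays. In counts, ARF-4 against scramble gave 1845 probes past the threshold (8.31%), and ARF-1 and ARF-2 together against scramble gave 6722 (30.3%). These counts share the scramble arrays, and the second rests on 6 arrays against 3, so they are given side by side and their difference was not tested. Array correlations were 0.986 to 0.988 for ARF-4 with scramble and 0.979 to 0.982 for ARF-1 and ARF-2 with scramble.

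**Figure D5:**
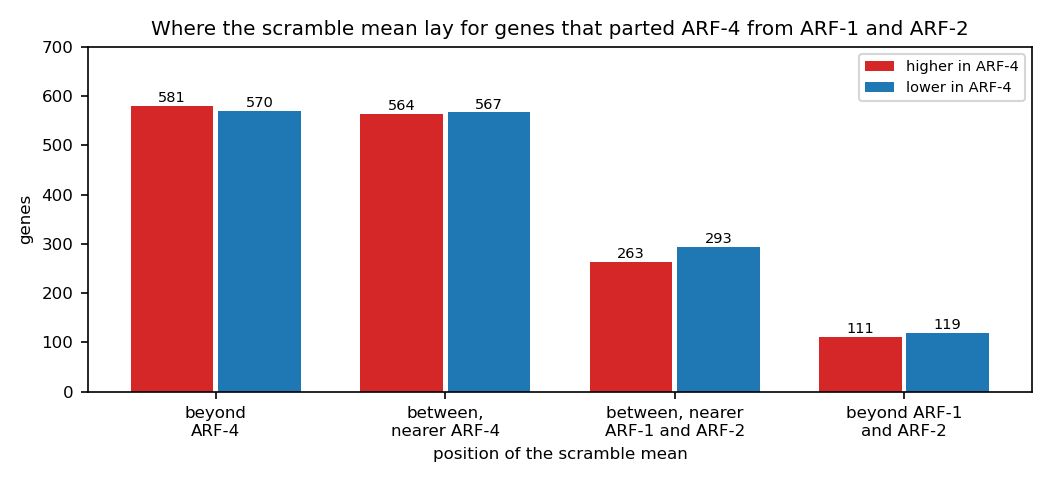
Number of genes by where the scramble mean lay, for the 3068 genes past the threshold with no overlap between ARF-4 and the ARF-1 and ARF-2 arrays. Bars are gene counts, split into genes higher and lower in ARF-4; beyond or nearer ARF-4 holds 2282 of them.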

How the data were processed

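Expression was measured on 12 single-colour Illumina beadchips, 3 for each of scramble, ARF-1, ARF-2 and ARF-4, grouped by source name. The deposited signals are intensity values per probe on a linear scale, not normalized, as BeadStudio 2.3.47 gives them; the tool is named in the submitters' processing notes. The deposited detection p-values compare each probe with negative control beads; the exact computation is not given in the sources used here. The authors' value table held quantile-normalized intensity of the same arrays, to within 6.06e-07 on the log2 scale.

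Of 47323 listed probes 12 had no values. Signals were background-corrected, quantile-normalized and put on the log2 scale with limma 3.58.1 (neqc, offset 16) in R 4.3.3, with statmod 1.5.0. Probes detected at p below 0.05 on at least 3 arrays were kept (22195). Of all probes 30108 had 1 gene symbol in the platform annotation, 8 several and 17207 none. A gene was read from its kept probe with the highest mean (12048 genes, 3249 with more than 1 kept probe). Of 1048 genes past the threshold that had other kept probes, 1122 of those 1351 other probes had the same sign, 565 of them past the threshold, and 16 passed it with the opposite sign. A group in which a probe was undetected on all arrays was given a bound: the mean over arrays of the higher of the probe's own signal and the lowest signal among detected probes.

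The 4 group means were fitted with lmFit and eBayes to all 12 arrays, which share 1 estimate of the spread. Contrasts were tested two-sided, with Benjamini-Hochberg adjustment over kept probes. The 40 lists (1228 members, 1142 on the array, 1017 tested) were described by counts and medians. Members and lists were chosen with earlier results of these data known. Named were the 15 largest rises and falls past the threshold against each set and both without overlap, the 4 members per list ranked first by adjusted p (fewer where fewer were taken), the 3 largest of each scramble class, and preset ARF and EMT genes. On simulated arrays with 200 changed probes the fit was tested for recovery. No 2 of the 12 arrays held identical values. Alternatives covered background correction, normalization, probe filter, weights, prior, samples, blocks, brightness, probe summary and each array left out.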

Additional observations from a re-analysis of the deposited data

Results flagged for a closer look

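IL1B, which encodes interleukin-1 beta, differed from ARF-4 by unequal amounts in the 2 comparison sets. It read 8.10, 8.08 and 8.09 on the ARF-4 arrays, 9.30, 9.26 and 9.25 on ARF-1, and 9.92, 9.98 and 9.89 on ARF-2, with 7.89, 7.86 and 7.75 on scramble. The ARF-4 minus ARF-2 difference was lower than the ARF-4 minus ARF-1 difference by -0.663 on the log2 scale. The test of that difference is ARF-2 against ARF-1, which passed the threshold (limma, adjusted p = 0.0125). IL1B was below both sets on all 3 ARF-4 arrays, so the direction was the same and the size differed.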

How the results depend on the processing

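Across 26 other settings, 186 named genes gave 4812 values: 4636 kept direction and side of the threshold, 142 lost the call, 26 gained it and 8 changed sign. These settings are not independent of each other or of the choice of genes. The authors' table and the fit without background correction hold the same values and gave the same counts. The largest rises and falls had to pass against ARF-1 alone and ARF-2 alone to be chosen. With median scaling 2579 probes passed, 1377 higher and 1202 lower, with 1707 against ARF-1 and 1655 against ARF-2; the cause was not tested. The other settings gave 4095 to 6277 probes, the share higher running from 48.7% to 53.4% with median scaling included. Leaving out 1 array gave 4095 (without ARF-4 replicate 2) to 5092 probes, 2720 to 3327 genes, 3406 to 4351 probes against ARF-1 and 3363 to 4240 against ARF-2.

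ARF-2 against ARF-1, 14 probes in the reported fit, gave 109 without background correction and 109 in the authors' table, 57 with normexp, 4 with median scaling, 9 with cyclic loess, 53 with the strict filter, 72 with a trended robust prior, 6 on the 9 arrays, 3 with the replicate block, 9 with brightness as a covariate, and 1 to 10 with 1 array left out.

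The values that changed sign belonged to genes not past the threshold. ARF1 read 0.047 against ARF-1 alone and 0.005 as the mean of its probes. ARF4 read 0.051 against ARF-2 alone, and -0.089 to 0.011 with 1 array left out. ARF6 ranged from -0.031 to 0.132 and VIM from -0.068 to 0.044 with 1 array left out.

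No strong pairing by replicate number showed. Same-number arrays correlated at -0.022 to 0.037 in their deviations, 0 of 9 pairs over 0.1, and other-number arrays at -0.032 to 0.021. A weak pairing was not tested. With the replicate block 5179 probes passed. The number of arrays and dim probes, such as those of FLG and FN1, limit precision.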
